A study of Homo sapiens with 3 samples.

Results

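Expression of 9 cancer-associated long noncoding RNAs was followed in DLD1, an established human colon cancer cell line, after transfection with siH19-1, with siH19-2 or with a control siRNA. The 9 genes (AFAP1-AS1, MALAT1, NEAT1, PVT1, TUG1, CCAT1, UCA1, GAS5 and HOTAIR) were taken by their symbols in the platform annotation, and each had exactly 1 probe set (a transcript cluster of the array). Of the 9, 6 are among the 22468 genes with a probe set of their own on the array, and 3 (NEAT1, PVT1 and GAS5) are on a probe set shared with other genes. H19, the long noncoding RNA that both siH19-1 and siH19-2 target, was left out of the set. Each condition was measured on 1 whole-transcript array, and all 3 arrays, the control included, came from cells that received siRNA at 50 nM with a lipid reagent. The treatment protocol gives 48 hours of transfection and the design text 24 hours, so the time is not settled here. The 9 were selected on their names and, with earlier results of these data known, chosen by their levels and differences from control on these arrays, so those values are a description and were not tested. As every condition rests on a lone array, no spread between replicates could be set beside a difference, the number of arrays limits the precision, and no p-value is given.

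Long noncoding RNAs are transcripts that act as RNA, or through the act of their transcription, and many are spliced and carry a cap and a tail like messenger RNAs. MALAT1 and NEAT1 are neighbouring genes whose RNAs stay in the nucleus: MALAT1 collects at nuclear speckles and NEAT1 is the scaffold of paraspeckles. PVT1 and CCAT1 lie on either side of MYC, and CCAT1 is known for its high level in colon tumours. AFAP1-AS1 runs antisense to AFAP1, which encodes an actin-binding adaptor. GAS5 carries box C/D small nucleolar RNAs in its introns, and its spliced RNA is degraded when it is translated, so that it accumulates in growth arrest. TUG1, UCA1 and HOTAIR are often measured in tumours, and HOTAIR is transcribed from the HOXC cluster. RefSeq lists TUG1 as protein-coding and the other 8 as long noncoding RNAs.

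Promoter windows in the RefSeq table (GRCh38.p14) were matched for 3 of the 9 genes: MALAT1 with 2 starts, TUG1 and GAS5. They are shown because they were the only members with a window there, and AFAP1-AS1 had none. Of the 3, MALAT1 was higher with both siRNAs and past 1.5-fold with siH19-2, while TUG1 and GAS5 stayed within 1.5-fold of control. Each window runs from 250 bases before the annotated start to 50 bases after it, except that only the 250 bases before the start are shown for TUG1. Capitals mark matches on either strand to any of 6 motifs. The letters CACGTG spell the E-box bound by MYC and related factors. The letters GGGCGG spell the GC box, and the letters CCAAT and TATAAA the boxes named after them. The letters CTTTGA are a core bound by TCF and LEF factors. The letters TGACGTCA spell the cAMP response element. None of the matches shown overlap, though 2 of the GC boxes in TUG1 touch each other. The windows are chr11:65497488-65497787 (plus strand) and chr11:65498795-65499094 (plus strand) for MALAT1, chr22:30969015-30969264 (plus strand) for TUG1 and chr1:173868996-173869295 (minus strand) for GAS5.
MALAT1, first start: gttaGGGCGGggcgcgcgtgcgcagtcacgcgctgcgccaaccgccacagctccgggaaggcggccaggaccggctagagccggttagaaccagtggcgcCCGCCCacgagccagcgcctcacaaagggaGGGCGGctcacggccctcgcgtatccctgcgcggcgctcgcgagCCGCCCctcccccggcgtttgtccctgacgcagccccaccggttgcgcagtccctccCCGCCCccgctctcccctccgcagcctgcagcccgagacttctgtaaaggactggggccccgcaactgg
MALAT1, second start: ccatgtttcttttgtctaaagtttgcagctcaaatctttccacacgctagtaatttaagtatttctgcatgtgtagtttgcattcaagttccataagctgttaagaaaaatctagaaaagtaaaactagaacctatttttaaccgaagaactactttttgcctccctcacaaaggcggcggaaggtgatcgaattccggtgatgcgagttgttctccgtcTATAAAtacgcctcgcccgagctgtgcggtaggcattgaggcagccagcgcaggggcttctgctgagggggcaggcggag
TUG1: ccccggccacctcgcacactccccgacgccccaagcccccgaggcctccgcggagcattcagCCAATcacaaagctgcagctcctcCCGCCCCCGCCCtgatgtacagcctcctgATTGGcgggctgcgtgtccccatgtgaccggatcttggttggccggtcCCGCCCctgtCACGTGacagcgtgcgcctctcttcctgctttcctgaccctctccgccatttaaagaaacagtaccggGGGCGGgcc
GAS5: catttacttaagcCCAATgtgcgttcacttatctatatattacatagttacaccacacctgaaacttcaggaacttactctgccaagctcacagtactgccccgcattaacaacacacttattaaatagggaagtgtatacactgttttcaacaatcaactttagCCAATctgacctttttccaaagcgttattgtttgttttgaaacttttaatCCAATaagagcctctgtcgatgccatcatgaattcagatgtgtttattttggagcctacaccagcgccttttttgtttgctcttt
The first MALAT1 window was rich in G and C (73.7%) and held GGGCGG 5 times, and the second (46.0%) held TATAAA once, with its first base 30 bases before the start. The TUG1 window (66.8% G and C) held GGGCGG 4 times, CCAAT 2 times and CACGTG once. The GAS5 window (37.7%) held CCAAT 3 times. Among all 35116 promoter windows of the table, 45.0% held GGGCGG, 34.6% CCAAT, 12.9% CTTTGA, 11.5% TATAAA, 7.26% CACGTG and 1.85% TGACGTCA. A run of at least 5 C or T from the annotated start, the mark of mRNAs for the translation machinery and of several small nucleolar RNA hosts, was found in 5.17% of windows and in none of the 3 full windows shown. Only the annotated start was looked at, so this does not show that a gene, GAS5 included, lacks the run at another start. A match in these letters is a description of the window and not a bound site.

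The values are the deposited log2 signals. Median signals over all probe sets were 3.53 with siH19-1, 3.57 with siH19-2 and 3.47 with control siRNA. The comparison covered the 9631 genes that had a probe set of their own and averaged 5 or more in log2 signal over the 3 arrays, and a gene was said to pass 1.5-fold where its signal differed from control by at least that factor. Of the compared genes, 4.21% passed 1.5-fold with siH19-1 (1.58% higher and 2.63% lower) and 11.9% with siH19-2 (2.94% higher and 8.94% lower). The higher genes made up 37.5% of those that passed with siH19-1 and 24.7% with siH19-2, and over 4 rescalings of the arrays these shares ran from 23.2 to 52.7% and from 13.4 to 44.2%. H19 itself, on a probe set it shares with MIR675, read 7.74 with siH19-1 and 7.37 with siH19-2, against 7.88 with control siRNA. Its differences of -0.14 and -0.51 stayed within 1.5-fold of control on the deposited scale. Centring each array on the median of all probe sets lowers every siH19-2 difference alike, and would put that of H19 past 1.5-fold. Epithelial markers were bright, with KRT8 at 15.64, 15.26 and 15.46 (siH19-1, siH19-2, control), although 4 of 12 (KRT20, CDX1, VIL1 and LGALS4) lay under the minimum. Of the 8 epithelial markers past it, 1 was higher by 1.5-fold with siH19-1, and 2 were higher and 1 lower with siH19-2: CDH1 read 12.10 and 12.23, against 10.27 with control siRNA, EPCAM 14.70 and 13.02, against 14.74, and CDH17 9.42 and 9.87, against 9.25. The CDH17 difference with siH19-2 (0.62) was 0.52, under 1.5-fold, when each array was centred on the median of all probe sets. The part of these shifts in the results below was not tested. Of the fibroblast and endothelial markers 0 of 10 and 0 of 4 reached it, and of 5 leukocyte markers CD68 did.

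Of the 9 long noncoding RNAs, 7 passed the signal minimum and UCA1 and HOTAIR did not. With siH19-1, 0 of the 7 passed 1.5-fold, where 4.21% of all compared genes did, and their median difference from control was 0.13 on the log2 scale, against -0.06 for all compared genes. With siH19-2, 2 of the 7 passed it, where 11.9% of compared genes did: AFAP1-AS1 was lower and MALAT1 was higher. At 2-fold, which 0.81% of compared genes reached with siH19-1 and 3.14% with siH19-2, AFAP1-AS1 with siH19-2 was the 1 that passed. The median of the 7 with siH19-2 was -0.30, against -0.06 for all compared genes. These counts involve the contrasts by which the genes were chosen, and nothing is read from them. The probe sets of NEAT1, PVT1 and GAS5 are shared with small RNA genes inside them, so their signals cannot be assigned to the long RNA alone. Both differences use the same control array, and agreement between them is therefore not independent.

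**Figure D1:**
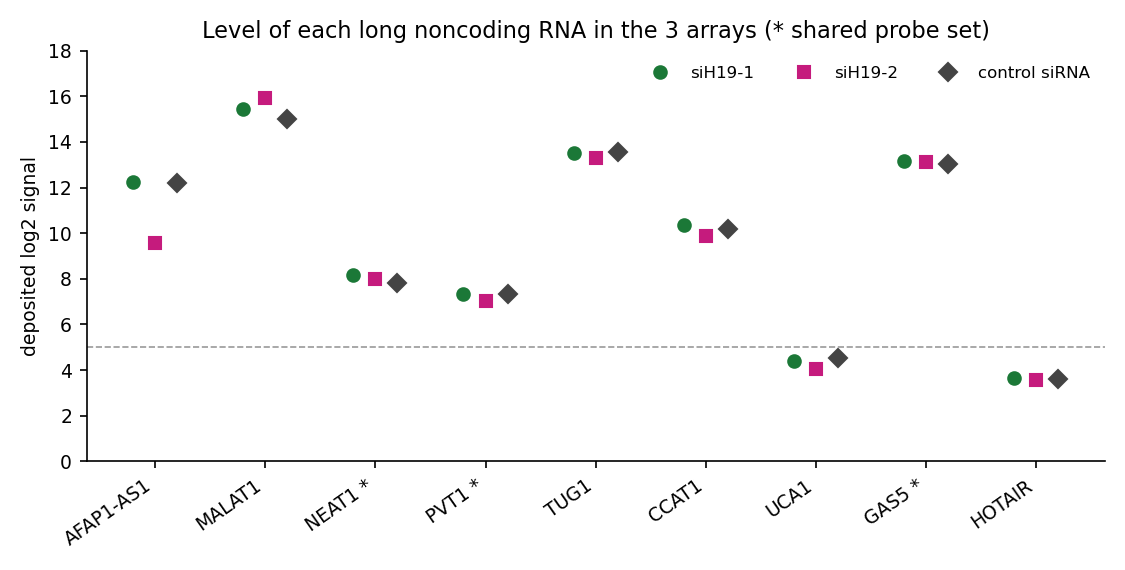
Deposited log2 signal (vertical axis) of each of the 9 long noncoding RNAs with siH19-1 (circles), siH19-2 (squares) and control siRNA (diamonds), 1 array each; the dashed line is the signal minimum of 5 and asterisks mark shared probe sets. AFAP1-AS1 stands apart at 9.55 with siH19-2, and UCA1 and HOTAIR lie under the line in all 3 arrays.

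AFAP1-AS1 had the largest difference of the set, and it was seen with siH19-2 alone. Its log2 signal was 12.25 with siH19-1 and 9.55 with siH19-2, against 12.19 with control siRNA. The siH19-2 array was thus low while the siH19-1 array lay beside control. The difference was 0.06 with siH19-1 and -2.64 with siH19-2, and the siH19-2 signal was 6.23-fold lower than control. Of the 9631 compared genes 8 had a lower difference with siH19-2, and of the 206 compared genes that RefSeq lists as long noncoding RNAs 0 did. Set directly against siH19-1, without the control array, siH19-2 was lower by a log2 difference of -2.70. AFAP1, the sense gene that overlaps it, read 4.94 with siH19-1 and 4.94 with siH19-2, against 4.91 with control siRNA, which is under the signal minimum. SORCS2, a sorting receptor gene on the lower-coordinate side, also lay under it (3.11 and 3.12, against 3.09).

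The 3 genes with differences most like those of AFAP1-AS1 were sought among 948 compared genes of like signal (mean within 1 log2 unit), by the distance between the pairs of differences. They were CS, the citrate synthase of the mitochondrial citric acid cycle (-0.16 with siH19-1 and -2.58 with siH19-2, distance 0.23), DSG2, a desmosomal cadherin (-0.18 and -2.66, distance 0.24), and LRRC59, a ribosome-binding protein of the endoplasmic reticulum membrane (0.06 and -2.34, distance 0.30). The likeness rests on 3 arrays that share a control.

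MALAT1 lay above control with both siRNAs. Its log2 signal was 15.45 with siH19-1 and 15.92 with siH19-2, against 15.02 with control siRNA. The order of the arrays was siH19-2, then siH19-1, then control. The difference of 0.43 with siH19-1 stayed under 1.5-fold (135% of control), and that of 0.90 with siH19-2 passed it (187% of control). Of the compared genes 315 were higher by more with siH19-1 and 67 with siH19-2, and of the 206 long noncoding RNAs 8 and 1 were.

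The 3 genes most like MALAT1, among 95 compared genes of like signal, were the microRNA gene MIR548H2 (0.49 with siH19-1 and 0.78 with siH19-2, distance 0.13), SLC12A2, the sodium, potassium and chloride cotransporter of the basolateral membrane (-0.01 and 0.73, distance 0.47), and TMBIM6, a cell death suppressor of the endoplasmic reticulum (0.24 and 0.39, distance 0.54).

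NEAT1, whose gene lies next to MALAT1, was also above control with both siRNAs, by less than 1.5-fold. Its probe set, shared with the microRNA gene MIR612, read 8.16 with siH19-1 and 7.99 with siH19-2, against 7.81 with control siRNA. The order differed from that of MALAT1, since siH19-1 was highest. The differences were 0.35 and 0.18 on the log2 scale. For scale, the differences given by separate probe sets of the same gene had a pooled SD over 70 genes that was 0.233 with siH19-1 and 0.295 with siH19-2. That SD compares probe sets on the same arrays, so it does not measure the error between cultures, transfections or arrays. FRMD8, the nearest protein-coding gene on the lower-coordinate side of both NEAT1 and MALAT1, read 4.93 and 4.96, against 4.98 with control siRNA, just under the minimum.

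**Figure D2:**
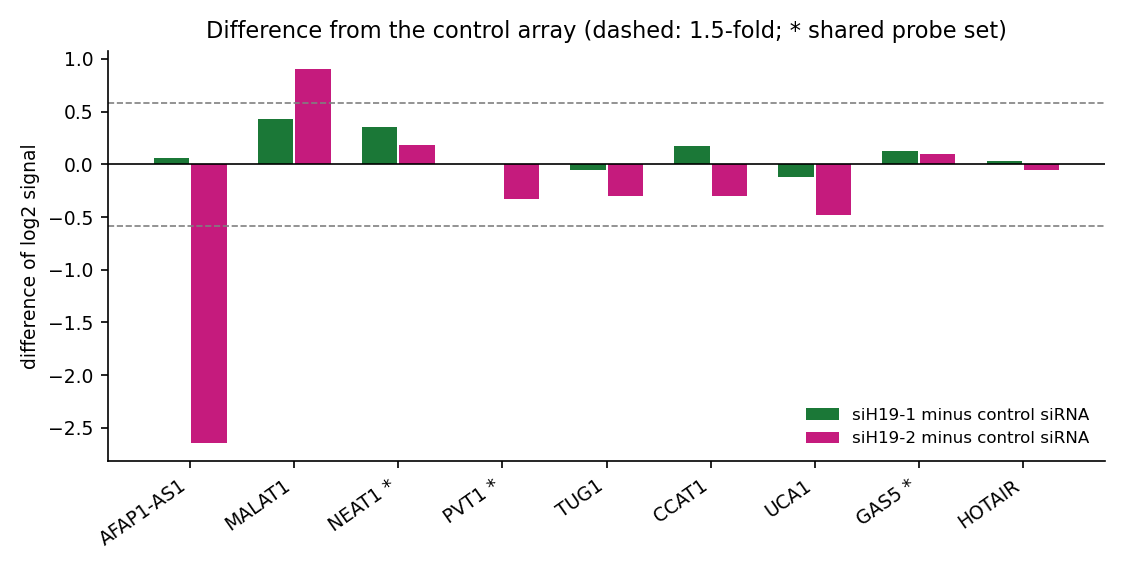
Difference of log2 signal from the control array (vertical axis) for each long noncoding RNA with siH19-1 (left bar) and siH19-2 (right bar); dashed lines mark 1.5-fold and asterisks shared probe sets. With siH19-2, AFAP1-AS1 at -2.64 and MALAT1 at 0.90 lie past the lines, and with siH19-1 all 9 lie within them.

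PVT1 and CCAT1, the pair beside MYC, were each a little below control with siH19-2 and not with siH19-1. The PVT1 probe set, shared with the microRNA gene MIR1204, read 7.35 with siH19-1 and 7.02 with siH19-2, against 7.35 with control siRNA. CCAT1 read 10.34 with siH19-1 and 9.87 with siH19-2, against 10.17 with control siRNA. The siH19-2 differences were -0.33 for PVT1 and -0.30 for CCAT1, under 1.5-fold, and the siH19-1 differences were 0.00 and 0.17. Of the 9631 compared genes, 2006 had a lower siH19-2 difference than PVT1 and 2246 a lower one than CCAT1. TUG1, on chromosome 22, had the same siH19-2 difference as CCAT1. Directly against siH19-1, siH19-2 was lower by differences of -0.33 for PVT1 and -0.47 for CCAT1.

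MYC, the growth-promoting transcription factor gene between them, read 9.62 with siH19-1 and 8.51 with siH19-2, against 9.59 with control siRNA. It passed 1.5-fold with siH19-2 (-1.08), which neither PVT1 nor CCAT1 did. POU5F1B, a retrogene of the pluripotency factor OCT4 between CCAT1 and MYC, read 4.85 and 4.20, against 5.22. Its siH19-2 difference of -1.02 exceeded 1.5-fold, but its mean signal of 4.76 lay under the minimum. LRATD2, on the other side of CCAT1, differed by 0.02 and -0.13. Inside PVT1, the microRNA genes MIR1206 (0.22 and 0.07) and MIR1207 (0.09 and 0.18) had probe sets of their own, whose differences stayed under 1.5-fold. MIR1205 and GSDMC lay under the signal minimum. Of the 4 compared genes of this region with a probe set apart from PVT1 and CCAT1 (MYC, LRATD2, MIR1206 and MIR1207), 1 passed 1.5-fold, MYC with siH19-2, where 11.9% of all compared genes passed; with siH19-1, 0 did, where 4.21% passed.

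TUG1 lay beside control with siH19-1 and a little below it with siH19-2. It read 13.53 with siH19-1 and 13.28 with siH19-2, against 13.58 with control siRNA, so that siH19-2 was lowest. The differences were -0.05 and -0.30, under 1.5-fold. MORC2, an ATPase of chromatin silencing and the nearest protein-coding gene on the lower-coordinate side, read 9.18 with siH19-1 and 9.18 with siH19-2, against 9.60 with control siRNA, a difference of -0.42 with each and also under 1.5-fold.

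GAS5 was the steadiest of the 7 genes past the minimum in range over the 3 arrays. Its probe set, shared with 8 of the small nucleolar RNAs in its introns, read 13.17 with siH19-1 and 13.14 with siH19-2, against 13.04 with control siRNA. The differences were 0.13 and 0.10. A pair of the small nucleolar RNAs inside GAS5, which guide methylation of ribosomal RNA, had probe sets of their own. SNORD78 read 14.74 with siH19-1 and 14.56 with siH19-2, against 14.87 with control siRNA. SNORD75 read 10.35 with siH19-1 and 10.04 with siH19-2, against 10.16 with control siRNA. Their siH19-2 differences were -0.31 and -0.12, within 1.5-fold. ZBTB37, a zinc finger gene that overlaps the GAS5 locus, differed by -0.01 with siH19-1 and 0.33 with siH19-2. GAS5-AS1, the antisense transcript, read 5.28 and 4.87, against 4.62 with control siRNA. Its siH19-1 difference of 0.66 exceeded 1.5-fold, but its mean signal of 4.92 lay under the minimum.

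UCA1 and HOTAIR stayed under the signal minimum on all 3 arrays. UCA1 read 4.41 with siH19-1 and 4.05 with siH19-2, against 4.53 with control siRNA, and HOTAIR read 3.66 with siH19-1 and 3.58 with siH19-2, against 3.63 with control siRNA. Detection calls were not used here, so neither can be called present or absent. The UCA1 differences were -0.12 and -0.48 and the HOTAIR differences 0.03 and -0.05, all under 1.5-fold. The genes around HOTAIR lay under the minimum as well: HOXC11, HOXC12 and HOXC10 read from 2.70 to 3.57 over the 3 arrays, and of 9 measured probe sets of the HOXC list only that of HOXC6, a homeobox transcription factor gene, passed the minimum (5.63 and 6.14, against 5.75). OR10H1 and CYP4F2, the nearest protein-coding genes to UCA1, lay under the minimum.

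**Figure D3:**
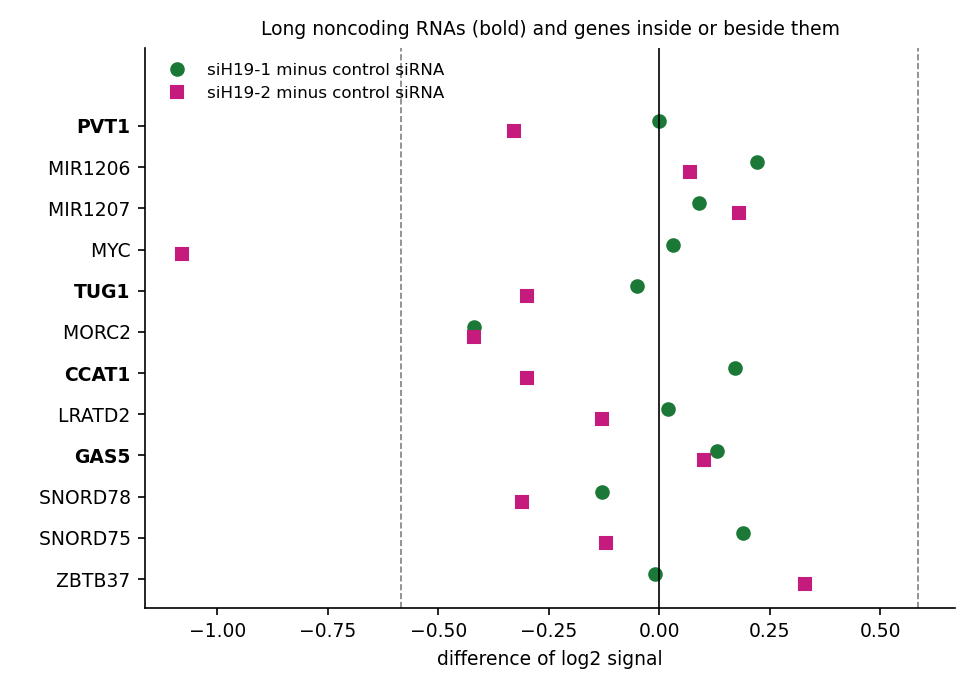
Difference of log2 signal from the control array (horizontal axis) for 4 of the long noncoding RNAs (bold) and, under each, the genes inside or nearest to it with a probe set of their own past the signal minimum; circles are siH19-1, squares siH19-2 and dashed lines 1.5-fold. MYC with siH19-2, at -1.08, is the only point past the lines.

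**Figure D4:**
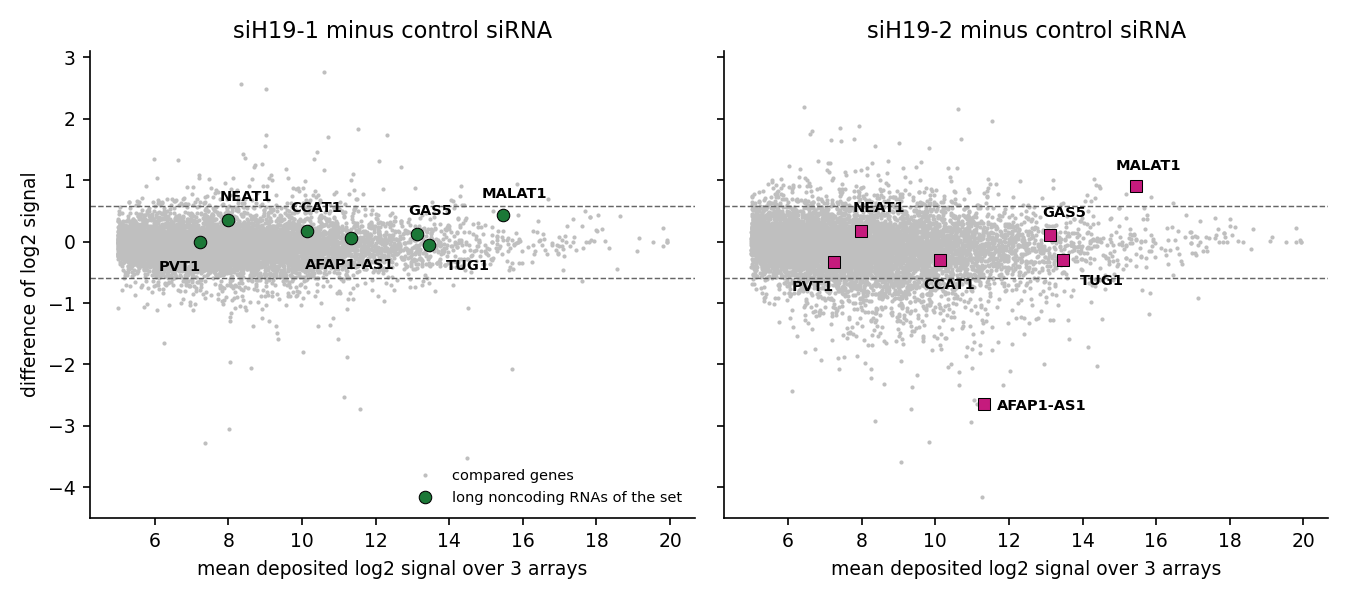
Difference of log2 signal from the control array (vertical axis) against the mean log2 signal over the 3 arrays (horizontal axis) for the 9631 compared genes (grey) and the 7 long noncoding RNAs past the minimum, with siH19-1 on the left and siH19-2 on the right; dashed lines mark 1.5-fold. With siH19-2 AFAP1-AS1 lies near the lower edge of the cloud and MALAT1 near its upper edge, and with siH19-1 all 7 lie between the lines.

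Long noncoding RNAs as a class gave the wider frame. Of the 206 compared genes that RefSeq lists as such, 0.971% passed 1.5-fold with siH19-1 (0.485% in each direction) and 8.25% with siH19-2 (3.88% lower and 4.37% higher), against 8.94% lower and 2.94% higher among all compared genes with siH19-2. The median difference of the class was 0.04 with siH19-1 and 0.09 with siH19-2. These class values are for the deposited scale, include AFAP1-AS1 and MALAT1, and are not given for the rescaled arrays. In a list of other cancer-associated long noncoding RNAs, 18 of 48 measured probe sets passed the signal minimum, with medians of 0.08 and 0.05. With siH19-1, 0 of the 18 passed 1.5-fold, and with siH19-2, 1 was higher and 2 were lower, where 4.21% and 11.9% of all compared genes passed in either direction. Centring each array on the compared genes left the 1 higher and 0 lower (DANCR at -0.57 and MIR17HG at -0.53). CRNDE, named for its activation in colorectal tumours, read 7.16 with siH19-1 and 7.93 with siH19-2, against 7.07 with control siRNA (0.09 and 0.86). DANCR, a suppressor of differentiation, read 8.08 and 7.84, against 8.52 (-0.44 and -0.68). The host gene of an oncogenic microRNA cluster, MIR17HG, whose probe set is shared with those microRNAs, had differences of -0.19 and -0.64.

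Noncoding host genes of small nucleolar RNAs are the kind to which GAS5 belongs. Of 20 compared on a list of such genes, 4 passed 1.5-fold downward with siH19-2 and 0 upward. Of all compared genes 8.94% and 2.94% did, and the median of the 20 was -0.24. With siH19-1, 0 of 20 passed in either direction and the median was -0.02. The 4 were SNHG12 (-0.01 with siH19-1 and -0.76 with siH19-2), DANCR, which is on both lists, SNHG15 (-0.29 and -0.67) and SNHG17 (-0.10 and -0.62). The count of 4 and 0 did not hold under every scaling: it was 3 lower and 1 higher after quantile normalization and 3 lower and 0 higher after cyclic loess, with SNHG17 at -0.52 and -0.57. When each array was centred on the median of the compared genes, an alternative added after seeing the data, the list median was -0.13. With that centring SNHG12 alone of the 4 stayed past 1.5-fold (-0.65). CHASERR, another of the 20, then passed it upward (0.52 as deposited, named after its value was seen). Its probe set is shared with the protein-coding CHD2 and names no small nucleolar RNA. Those of DANCR and SNHG17, among the 4 lower genes, name none either. For these genes the array annotation does not show that they are hosts, and their place rests on the list. Of the 20 probe sets 4 are shared with a protein-coding gene. Many are shared with small nucleolar RNA genes, among them those of SNHG12 (SNORA16A, SNORA44 and SNORA61) and SNHG15 (SNORA9). Such signals cannot be assigned to the host RNA alone.

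The partners of these RNAs mostly stayed within 1.5-fold. Among paraspeckle proteins, which assemble on NEAT1, the core pair differed by at most 0.10 from control: NONO read 14.26 and 14.32, against 14.27 with control siRNA, and SFPQ read 12.27 and 12.37, against 12.27. Of 32 compared, 2 were lower and 0 higher with siH19-1 (SS18, a chromatin remodelling subunit, at -2.53, and TAF15, an RNA-binding protein, at -0.64), and 1 was lower and 1 higher with siH19-2, where 4.21% and 11.9% of all compared genes passed in either direction. With siH19-2 those were HNRNPR, an RNA-binding protein (-0.29 and -1.26), and CIRBP, a cold-induced RNA-binding protein (0.26 and 0.64). TAF15 with siH19-1 was -0.57, under 1.5-fold, after centring on the compared genes, and CIRBP with siH19-2 was 0.54, also under it, after centring on all probe sets. The medians were -0.02 and -0.08.

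Of the factors that form the 3′ end of MALAT1 or bind its triple helix, 1 of 14 compared passed 1.5-fold with each siRNA, where 4.21% of all compared genes passed with siH19-1 and 11.9% with siH19-2. Of the 14, 10 were below control with siH19-1 and 11 with siH19-2, where 61.9% and 58.4% of all compared genes were, and the medians were -0.21 and -0.31. The counts below control were 9 and 10 after centring on the compared genes, and both rest on the same control array. POP4 (-0.74 and -0.39) passed 1.5-fold with siH19-1 and POP1 (-0.28 and -0.63) with siH19-2; both are subunits of RNase P, the ribonuclease that cuts the MALAT1 transcript. METTL16, a methyltransferase that binds the MALAT1 triple helix, was at -0.36 and -0.52, and ELAC2, which trims the small RNA released from the MALAT1 end, at -0.32 and -0.42. Of 17 compared factors of nonsense-mediated decay, the pathway that degrades spliced GAS5, 0 passed 1.5-fold with siH19-1 and 1 with siH19-2, the SMG1 kinase subunit SMG8 (-0.25 and -0.74), where 4.21% and 11.9% of all compared genes passed, and the medians were -0.01 and -0.10. With siH19-2, centring each array on the median of all probe sets put 3 genes of each of these lists past 1.5-fold downward, and centring on the compared genes 0 of the first and 1 of the second. UPF1, the helicase at the centre of nonsense-mediated decay, was at -0.31 and -0.53, lower than the medians of that list. Of its 17 factors, 9 were below control with siH19-1 and 11 with siH19-2, and the highest differences were 0.48 and 0.41.

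**Figure D5:**
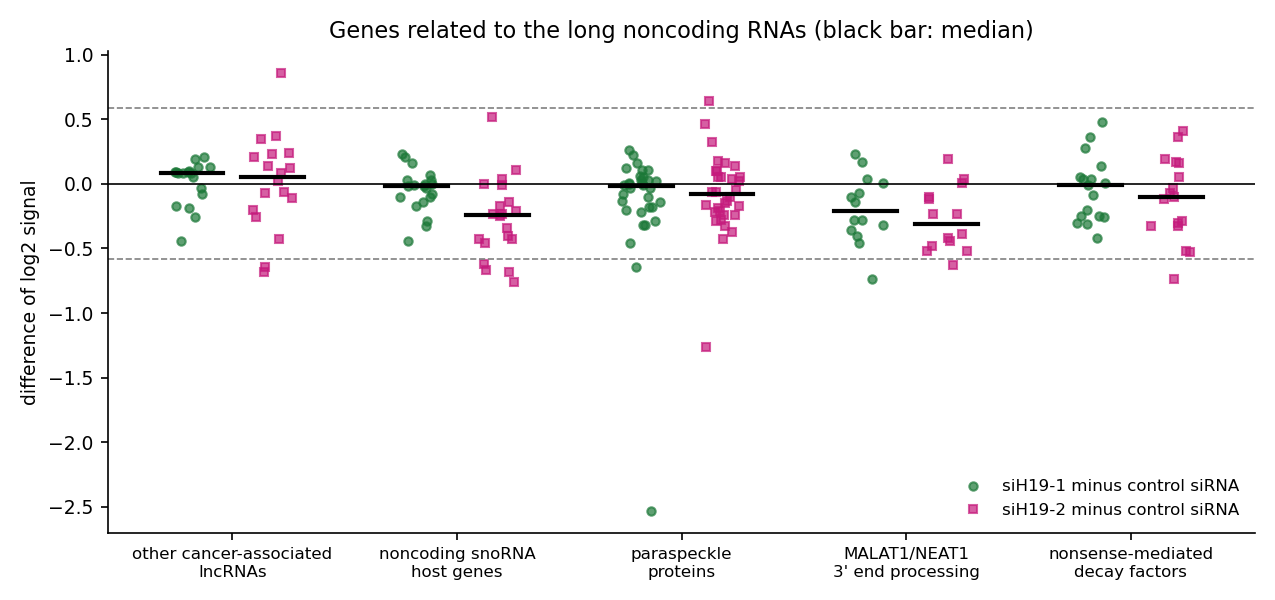
Difference of log2 signal from the control array (vertical axis) for the compared genes of 5 lists related to the long noncoding RNAs; each point is a gene with siH19-1 (circles, left) or siH19-2 (squares, right), black bars are medians and dashed lines mark 1.5-fold. The median of the list of noncoding small nucleolar RNA hosts is -0.02 with siH19-1 and -0.24 with siH19-2.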

How the data were processed

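The submitters' processing notes name Affymetrix Expression Console and RMA (background correction, normalization across arrays, probe summary), without versions. The deposited table holds log2 signals, 1 per probe set and array. They run from 1.78 to 19.93, and 319 (siH19-1), 337 (siH19-2) and 315 (control) probe sets lie above 16, so a step beyond plain RMA is possible and every fold is a fold on the deposited scale. The platform annotation, which can be old, gave 1 symbol to 23784 of 67528 probe sets, several to 1540 and none to 42204. Where a gene had more than 1 probe set, that of highest mean signal stood for it. RefSeq (GRCh38.p14) gave gene types, neighbours and promoter sequences, and no array coordinates were taken from it. Differences are siRNA minus control. The members and lists were chosen with earlier results of these data known. Named genes were the 9 members, the genes inside or nearest to them, up to 4 genes of each list past 1.5-fold (largest first), the 3 genes most like each member past 1.5-fold, and H19 and MYC; NONO, SFPQ, METTL16, ELAC2 and UPF1 were named after their values were seen, for their known roles. Alternatives were median centring, quantile and cyclic loess normalization (limma 3.58.1, R 4.3.3), a 2-fold threshold, signal minimums of 7 or none, and probe sets of 1 symbol. The count rule was checked on simulated arrays, which shows that it counts as written and gives no measure of the error of these arrays. Python 3.11.15, numpy 2.4.6, pandas 2.3.3 and matplotlib 3.10.9 were used. No test was made, as each condition has 1 array.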

Additional observations from a re-analysis of the deposited data

How the results depend on the processing

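Across the 4 rescalings, AFAP1-AS1 with siH19-2 ranged from -2.74 to -2.53 and MALAT1 with siH19-2 from 0.80 to 1.01, and with siH19-1 MALAT1 ranged from 0.37 to 0.50. All 9 members stayed on their side of 1.5-fold with each siRNA. For UCA1 with siH19-2 the margin was slight, at -0.58 after cyclic loess and after centring on all probe sets, against a threshold of 0.585. With siH19-1, PVT1 (-0.06 to 0.07), TUG1 (-0.11 to 0.02) and HOTAIR (-0.03 to 0.10) took both signs, and AFAP1-AS1 was 0.00 at its lowest. With siH19-2, HOTAIR (-0.15 to 0.06) took both signs and GAS5 was 0.00 at its lowest. At a 2-fold threshold on the deposited scale 1 member, AFAP1-AS1, remained past it with siH19-2, and MALAT1 did not. The count with siH19-1 was 0 under each alternative run, and the other alternatives left 2 with siH19-2. MALAT1 with siH19-2 was 1.01, just past 2-fold, after centring on the median of the compared genes, so its place at 2-fold rests on the scaling. Centring on the median of the compared genes, added after seeing the data, moved their median difference with siH19-2 to 0.05, against -0.06 as deposited. The share of higher genes among those past 1.5-fold with siH19-2 was 24.7% as deposited and between 13.4% and 44.2% after rescaling, so the balance of directions rests on the scaling. No paired analysis was possible because each condition has 1 array.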

Other observations

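Among the 206 compared long noncoding RNA genes, the highest with siH19-2 was CAMTA1-IT1, an intronic transcript of CAMTA1, at 6.19 with siH19-1 and 6.86 with siH19-2, against 5.81 with control siRNA (differences of 0.38 and 1.05). MALAT1 was next, followed by SNRK-AS1 (-0.16 and 0.87). After AFAP1-AS1 the lowest were PCOTH (-0.31 and -0.96), FAM27E3 (-0.47 and -0.86) and LINC00273 (-0.50 and -0.84). With siH19-1 the 2 that passed 1.5-fold on the deposited scale were PAXIP1-DT, lower (-0.65, and -0.13 with siH19-2), and BACH1-IT2, higher (0.59, and 0.11 with siH19-2). BACH1-IT2 lay just past the threshold. These genes were named after their values were seen, by their place in the class.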
